A study of Arabidopsis thaliana with 4 samples.

Results

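The subject is a set of 69 cDNA clones whose fed over untreated ratio was at least 2-fold above the middle clone of the array at all 4 feeding times in a time course of thrips feeding on Arabidopsis. They were found among 1182 RIKEN Arabidopsis full-length (RAFL) cDNA clones, of which 607 had a value at every time. The ratios themselves chose the clones, so their height is a description and carries no test. The choice used the deposited value table, turned into log2 and centred on the middle RAFL clone of each array, with a value of at least 1 required at 2, 5, 10 and 24 h. A total of 80 clones met it, and 11 of them belonged to a list of 14 genes set aside, among them AT5G05600, AT3G28220 and FAMT. On the scale that chose them, the lowest, median and highest of the 69 clones stood at 1.11, 2.29 and 4.07 at 2 h and at 1.06, 2.42 and 4.63 at 5 h. They stood at 1.07, 2.46 and 5.23 at 10 h and at 1.01, 2.11 and 5.31 at 24 h. Just inside the limit were RAFL08-17-O07, RAFL09-97-K15 and AT1G62660, with lowest values of 1.01, 1.04 and 1.06, and just outside were RAFL05-20-B01, RAFL09-66-C10 and GTR1, at 0.97, 0.96 and 0.95.

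The fed plants were Arabidopsis thaliana of the ecotype Columbia (Col-0), wild type and 21 days old, each held in an acrylic chamber with 25 adult females of the western flower thrips (Frankliniella occidentalis) that had been starved for 3 h, for 2, 5, 10 or 24 h. The reference was Col-0 plants of the same age that were not fed upon. Both kinds were grown in soil at 22 °C. Per the labels, the tissue was leaves, or the plant without its root. Each sample held 30 to 70 plants, and material of 3 to 4 experiments was pooled before extraction. The labels speak of 2 to 3 arrays per RNA, of which 1 per time was analysed here, so the values carry no measure of the spread between plants or between arrays. Fed RNA carried the red dye Cy5 and untreated RNA the green dye Cy3 on all 4 arrays, and dyes were not swapped, so that a preference of a clone for one dye and an effect of feeding cannot be told apart. In RNA of whole shoots, fewer cells of a type and less RNA per cell cannot be told apart either.

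Thrips pierce single leaf cells and suck out their contents, so feeding wounds tissue and brings in saliva at the same time. Wounded leaves make jasmonate, a lipid-derived hormone that switches on defence genes through the removal of JAZ repressors, and attacked plants also strengthen cell walls, export or modify toxic compounds and move sugars and lipids. A gene that stays high through a day of feeding can be part of the wound response that starts within hours, of the defence that follows, or of metabolism that changes with feeding damage.

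Facts of the whole array bear on every value. Usable ratios were obtained for 718 to 857 clones a time, and the median usable clone spot had a foreground between 1325 and 2063 in fed RNA and between 895 and 1150 in untreated RNA, over local backgrounds of 181 to 336 and 106 to 128. The spread of log2 ratios over clones was not the same on all arrays, with an SD of 1.11 at 2 h, 1.29 at 5 h, 1.60 at 10 h and 1.28 at 24 h. The number of arrays limits the precision. None of the leaf marker genes listed was named on the array, so the leaf identity was not checked. Of 8 root marker genes, 3 were measured: PYK10 stood at -0.27, 0.42, 1.5 and 2.86 log2, BGLU22 at -0.58, 0.41, 1.55 and 1.82, and BGLU21 at 0.60, 1.08 and 0.57 from 5 h on. Their part in the results below was not tested.

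All 69 clones were measured again from the scanner intensities, with loess normalization within each array. All values from here on are log2 ratios of fed over untreated after loess, unless another scale is named. The loess fit sets their zero point, and the median of the 607 clones with 4 values was -0.13, -0.09, -0.16 and -0.07 at 2, 5, 10 and 24 h. The lowest, median and highest clone stood at 0.47, 1.86 and 3.81 at 2 h, and at 1.07, 2.28 and 4.35 at 5 h. At 10 h they stood at -0.17, 2.11 and 5.05, and at 24 h at -0.10, 1.93 and 5.15. The median clone was thus 3.64-fold higher in fed than in untreated plants at 2 h, 4.85-fold at 5 h, 4.31-fold at 10 h and 3.81-fold at 24 h.

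**Figure D1:**
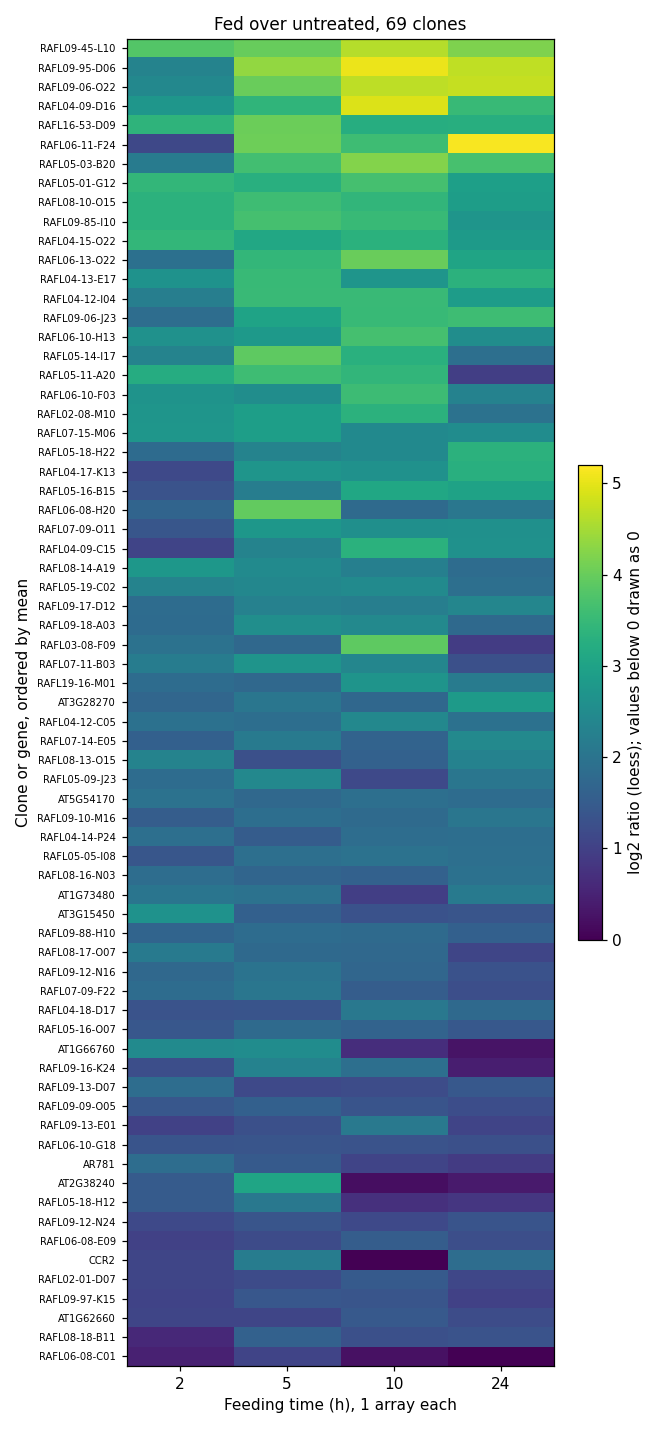
Log2 ratio of fed over untreated plants after loess for all 69 clones (rows, ordered by their mean over times) at 2, 5, 10 and 24 h (columns, 1 array each). Colour gives the ratio, with values below 0 drawn as 0. RAFL09-45-L10 heads the list with values between 3.81 and 4.63, and RAFL06-08-C01 ends it with values between -0.10 and 1.07.

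With loess, 67, 69, 63 and 60 of the 69 clones stood at 1 or more at 2, 5, 10 and 24 h, and 57 did so at all 4 times. Over the 607 clones with 4 values, 20.8%, 20.8%, 22.1% and 18.6% reached that level at these times and 11.5% at all of them. In the deposited table that chose the clones these shares were 24.2%, 22.1%, 23.1%, 20.4% and 13.2%, and the choice fixed the difference between the clones and the array. By their mean over times, 14 clones stood at 3 or more, 22 between 2 and 3, 32 between 1 and 2, and 1 below 1. The median of the means was 2.09, a 4.25-fold higher level in fed plants.

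The 12 clones that did not stay at 1 or more with loess were mostly those with weak untreated signal. Fed signal was above background at every time for all 69 clones. Untreated signal was above background at all 4 times for 48 clones, at 1 to 3 times for 17 and at no time for 4. Of the 607 clones with 4 values, 578 had untreated signal above background at all times, so weak untreated signal was more common among the 69. Of the 12 clones, 10 had untreated signal not above background at 1 time or more, against 11 of the other 57. Of the 17 single values under 1, 13 fell where untreated signal was not above background. Where untreated RNA gives no clear signal, the ratio has only a lower bound, written below as "at least": the normalized fed signal over the higher of the clone's own untreated signal and the weakest untreated signal that counted as above background on that array.

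**Figure D2:**
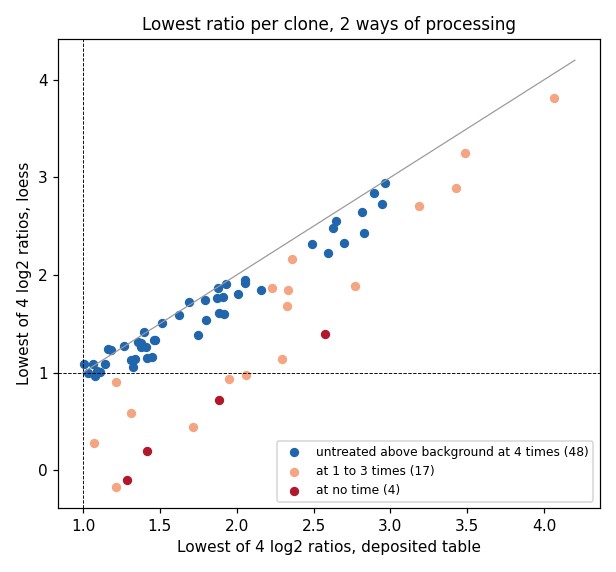
For each of the 69 clones, the lowest of its 4 log2 ratios in the deposited table (x axis) and with loess (y axis). Dashed lines mark 1 on each scale and the grey line marks equal values. The 57 clones above the horizontal line include 46 of the 48 whose untreated signal was above background at 4 times (blue).

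Gene names were available for 9 of the 69 clones, which is 13%, against 35.1% of all clones on the array and 25% of the 80 clones that met the choice before genes were set aside. The other 60 are given by clone number. The named genes fall into signalling and defence chemistry, transport, lipid and sugar metabolism, and proteins whose roles are less well known. All 9 are protein-coding genes.

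AT2G38240, on chromosome 2, encodes an oxygenase of the JOX family (JOX4), which hydroxylates jasmonate and so takes it out of signalling. Its ratio stood at 1.49, 3.06, 0.19 and 0.37 at 2, 5, 10 and 24 h; the spots had SDs of 0.48, 0.32 and 0.30 up to 10 h, and 1 spot was usable at 24 h. The 5 h value stood apart from the others. Untreated signal was not above background at any time, and the fed level was at least 1.72-fold higher at 2 h and at least 4.29-fold higher at 5 h. No bound above 1 could be given at 10 and 24 h, where the deposited table had 1.42 and 1.57. Of 36 genes listed for making, breaking down and sensing jasmonate, 4 were named on the array and 3 had 4 values. AT5G05600 (JOX2), of the same family, stood at 3.72, 4.58, 4.83 and 4.71, and OPCL1, which activates the jasmonate precursor for shortening, at 1.86, 1.75, 2.15 and 1.49. JMT, which methylates jasmonate, had a single value, 0.69 at 5 h. The median of the means of the 3 genes was 1.81, against -0.10 over all 607 clones. With 3 genes and ratios chosen from this contrast, the list has no test.

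CCR2, on chromosome 1, encodes cinnamoyl-CoA reductase, the enzyme that commits phenolic precursors to lignin. Its ratio was 1.09 at 2 h, 2.18 at 5 h, -0.17 at 10 h and 1.85 at 24 h. The 2 h and 10 h values rest on 1 spot each, with untreated signal not above background, so they are no exact ratios. The fed level was at least 1.99-fold higher at 2 h, and no bound above 1 could be given at 10 h, where the deposited table had 1.21. At 5 and 24 h, 2 spots agreed to an SD of 0.30 and 0.13. CCR2 was the only gene named on the array of the 21 listed for phenylpropanoids and lignin.

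AT1G66760, on chromosome 1, encodes a transporter of the MATE family, whose members export small organic molecules and toxic compounds. Its ratios were higher at the early times, at 2.49 and 2.53 at 2 and 5 h (spot SDs of 0.16 and 0.09), and at 0.68 and 0.28 at 10 and 24 h. The last value rests on 1 spot with untreated signal not above background, where the bound was at least 1.21-fold. The deposited table had 1.07 and 1.39 at 10 and 24 h. In fed plants the foreground was 1819, 3255, 860 and 581 at the 4 times, and in untreated plants 354, 395, 294 and 236.

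AT1G73480, on chromosome 1, encodes a hydrolase of the alpha/beta fold related to lipases that cleave monoacylglycerols. It stood at 2.03, 1.97, 0.97 and 2.12, with SDs between spots of 0.03, 0.13, 0.03 and 0.24. The 10 h value lay lower than the other 3 by about 1, more than any of these SDs, which do not measure the spread between arrays. Foreground at 10 h was 2073 in fed and 629 in untreated plants, both above background. AT5G54170, on chromosome 5, encodes a protein with a lipid-binding fold of the START type. It stood at 1.96, 1.75, 1.89 and 1.83, a mean of 1.86, with SDs between spots of 0.32, 0.05, 0.30 and 0.07. These times differed by less than the spots of the 2 h and 10 h arrays. In the deposited table the values were 2.34, 1.79, 2.02 and 1.96.

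AT1G62660, on chromosome 1, encodes an invertase of the vacuole, which splits sucrose into glucose and fructose. It stood at 1.09, 1.09, 1.45 and 1.20, a mean of 1.21, or 2.31-fold higher in fed plants. Fed foreground was 3777, 4693, 5342.5 and 2756.5, against 1726, 1375, 1333 and 1029.5 in untreated plants, all above background. Its values differed by 0.36 between the highest and the lowest time, while the spots of the 5 h array alone had an SD of 0.37.

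AT3G28270, on chromosome 3, encodes a protein related to At14a, a plant protein with weak likeness to integrins. It stood at 1.73, 2.04, 1.74 and 2.84, with SDs between spots of at most 0.14, and its 24 h value was the highest of the 9 named genes at that time. Fed foreground at 24 h was 6612, against 863 in untreated plants. AT3G15450, on chromosome 3, encodes a protein with YGL and LRDR motifs related to aluminium-induced proteins, whose transcripts are known to rise when leaves lack sugar. It was highest at 2 h, at 2.65, and stood at 1.59, 1.32 and 1.37 afterwards. AR781, on chromosome 2, encodes a protein of unknown function. Its ratios were 1.86, 1.46, 1.08 and 0.91. In the deposited table they were 2.66, 1.48, 1.21 and 1.34, so the order of the last 2 times turned. Untreated signal of AR781 was not above background at 2 h, where the fed level was at least 3.47-fold higher, and its spots at 10 h had an SD of 0.59.

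**Figure D3:**
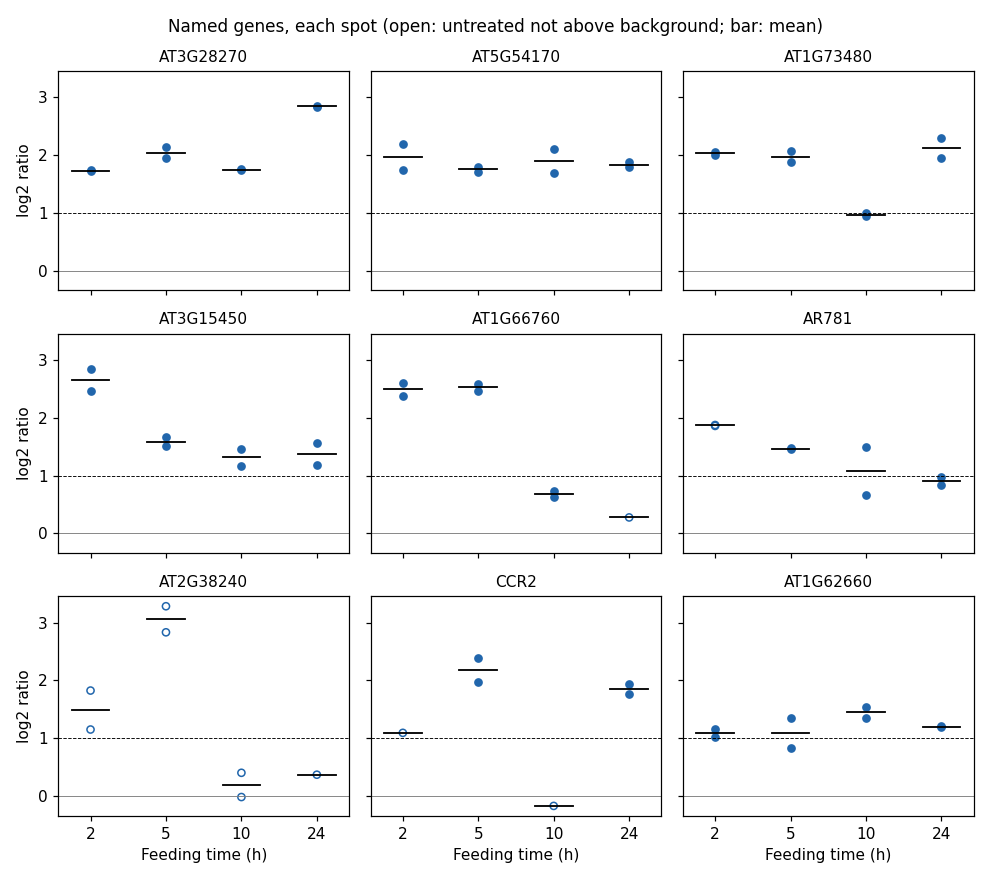
Log2 ratios of fed over untreated plants after loess for the 9 named genes at each feeding time (equal steps on the x axis), 1 point per usable spot and a bar for their mean. Open points mark times at which untreated signal was not above background, and the dashed line marks 1. AT5G54170 lies between 1.75 and 1.96, AT1G66760 is near 2.5 at 2 and 5 h and under 1 later, and all AT2G38240 points are open.

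The clones with the highest means had no gene name here. RAFL09-45-L10 stood at 3.81, 4.0, 4.63 and 4.19, a mean of 4.16, or 17.8-fold higher in fed plants. Its foreground was 18855, 6246, 5150 and 26005 in fed RNA and 1260, 290, 192 and 1128 in untreated RNA. Both dyes were brighter at 2 and 24 h than at 5 and 10 h, while the ratio moved by only 0.82. Untreated signal was not above background at 10 h, where the fed level was at least 15.6-fold higher. RAFL09-45-L10 and RAFL16-53-D09 were the only clones of the 69 at 3 or more at every time; untreated signal of RAFL16-53-D09 was not above background at 2 and 10 h, where the fed level was at least 8.19-fold and at least 7.08-fold higher.

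RAFL09-95-D06 stood at 2.33, 4.35, 5.05 and 4.70, a mean of 4.11. RAFL09-06-O22 stood at 2.43, 4.01, 4.68 and 4.75, and RAFL04-09-D16 at 2.73, 3.40, 4.92 and 3.50. All 3 were lowest at 2 h and had untreated signal above background at every time, with SDs between spots of at most 0.36. For RAFL09-95-D06 the fed foreground was 2826 at 2 h and between 25069 and 39850 later, against 529 to 1060 in untreated plants over all times. RAFL09-06-O22 differed, with fed foreground of 22581.5, 26237, 20160 and 9715 and untreated foreground of 3392, 866.5, 509.5 and 365. Its normalized signal ranged over times by 1.18 log2 in fed and 3.36 log2 in untreated RNA. Signals of a dye on different arrays also hold array effects common to both dyes, and the source of the change in its ratio was not tested.

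At the other end, RAFL06-08-C01 stood at 0.47, 1.07, 0.23 and -0.10 on 1 spot a time, and untreated signal was never above background. In the deposited table the same clone had 1.93, 1.62, 1.53 and 1.29. RAFL08-18-B11 stood at 0.59, 1.62, 1.26 and 1.33, RAFL09-97-K15 at 1.04, 1.42, 1.37 and 1.00, and RAFL02-01-D07 at 1.09, 1.19, 1.47 and 1.11. These 3 clones were low in mean but, from 5 h on, near or above 1 on each array. RAFL06-08-C01 did not hold the level that chose it, and its 4 values rest on weak signal.

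The clones differed in how steady they were. The range between a clone's highest and lowest time had a median of 1.03, against 0.96 over the 607 clones. It was under 1 for 34 clones, between 1 and 2 for 20 and at least 2 for 15, which is 21.7% of the clones against 11.5% of the 607. The most even clone was RAFL06-10-G18, at 1.36, 1.37, 1.33 and 1.26, with untreated foreground of 3329 to 5484. In all, 12 clones varied by less than 0.5, and none of these had a mean above 2.66.

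The widest range was that of RAFL06-11-F24, at 1.13 at 2 h, 4.05 at 5 h, 3.58 at 10 h and 5.15 at 24 h, with SDs between spots of at most 0.23. Its fed foreground was 760, 25022, 6142 and 25207, against 356, 888, 387 and 642 in untreated plants. The fed dye therefore carried most of the change, and untreated signal was above background throughout. RAFL03-08-F09 was highest at 10 h, at 3.90, against 1.96, 1.75 and 0.93 at 2, 5 and 24 h, with untreated signal not above background at 24 h and a fed level at least 1.91-fold higher there. RAFL05-11-A20 stood at 3.22, 3.59 and 3.43 up to 10 h and at 0.97 at 24 h, where its fed foreground was 720 after 4156, 6360 and 4870 before. Untreated signal of RAFL05-11-A20 was not above background at 10 and 24 h, where the fed level was at least 10.7-fold and at least 1.59-fold higher.

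**Figure D4:**
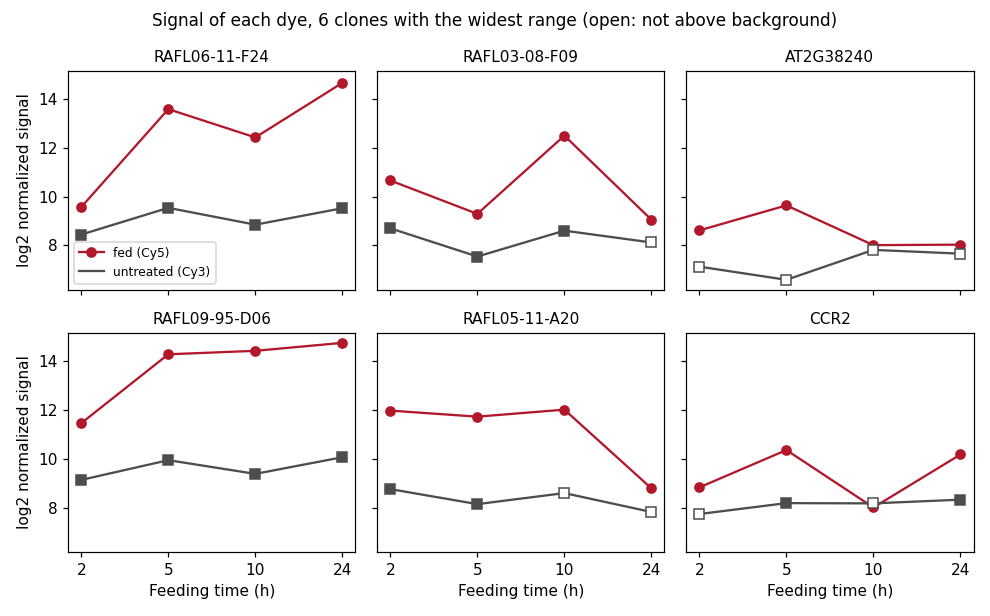
Normalized log2 signal of fed RNA (red circles) and untreated RNA (grey squares) by feeding time (equal steps) for the 6 clones with the widest range of ratios. Open squares mark untreated signal not above background. In RAFL06-11-F24 the fed signal is 9.57 at 2 h and 14.7 at 24 h while the untreated signal stays between 8.45 and 9.54.

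Over all 69 clones, normalized fed signal varied more over times than normalized untreated signal in 58 clones, with median ranges of 1.44 and 0.83 log2. The same held for 84.5% of the 607 clones, against 84.1% of the 69, so the share was that of the array.

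The choice took no account of the order of times, and the time of the highest value was not fixed by it. The 69 clones are all high, however, and the SD of ratios over clones differed between arrays. The part of this in the contrast with the 607 clones below was not tested. With loess, 9 clones were highest at 2 h, 27 at 5 h, 22 at 10 h and 11 at 24 h. The corresponding shares were 13%, 39.1%, 31.9% and 15.9%, against 32.6%, 21.1%, 22.1% and 24.2% of the 607 clones. The lowest value fell at 2 h in 27 clones, at 5 h in 7, at 10 h in 10 and at 24 h in 25. These are 39.1%, 10.1%, 14.5% and 36.2% of the 69, against 21.4%, 13%, 36.7% and 28.8% of the 607 clones. These counts depended on the zero point and on weak signal. By the deposited values, 16, 16, 27 and 10 clones were highest at 2, 5, 10 and 24 h. Among the 48 clones with clear untreated signal throughout, 13 were highest at 5 h and 19 at 10 h. With the lambda DNA control spots as the zero point, 56 were highest at 5 h. Shares over all clones were not counted for these alternatives.

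The 22 clones highest at 10 h had medians of 1.95, 2.37, 3.34 and 2.24 over the 4 times, and the 27 clones highest at 5 h had 1.69, 2.43, 1.72 and 1.36. CCR2, AT2G38240 and AT1G66760 were highest at 5 h, and AT1G62660 at 10 h. The 9 clones highest at 2 h included AT5G54170, AT3G15450 and AR781, and had medians of 2.15, 1.59, 1.75 and 1.83. The 11 clones highest at 24 h included AT3G28270 and AT1G73480, with medians of 1.81, 2.28, 2.22 and 2.84. By the deposited values CCR2 and AT1G66760 were highest at 2 h, at 2.33 and 2.79, against 2.26 and 2.62 at 5 h. AT1G73480 was also highest at 2 h there, at 2.31 against 2.25 at 24 h. The other named genes kept their time of the highest value.

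**Figure D5:**
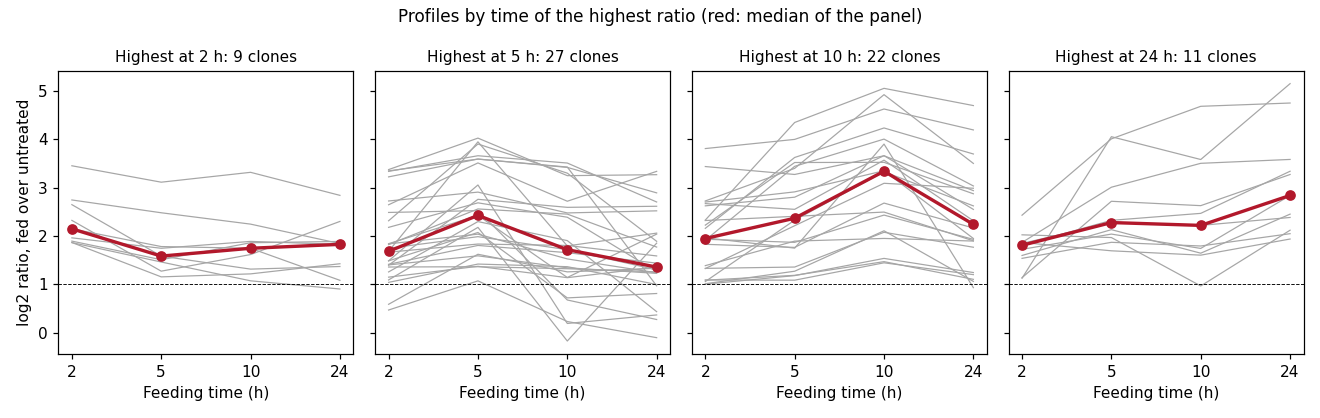
Log2 ratio of fed over untreated plants after loess by feeding time (equal steps), in panels by the time of each clone's highest ratio. Grey lines are clones, the red line is the panel's median and the dashed line marks 1. The largest panels hold 27 clones highest at 5 h and 22 highest at 10 h.

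Steps between times on the same slide avoid a change of slide. The 2 h and 5 h arrays were taken to share 1 slide and the 10 h and 24 h arrays another. This was read from a code in the image names of the file headers, which do not name slides outright. From 2 to 5 h the ratio was higher in 52 of 69 clones (75.4%), against 48.1% of the 607 clones, with a median difference of 0.32 for the 69 and -0.02 for all. From 10 to 24 h it was higher in 26 of 69 clones (37.7%), against 54.5% of all, with median differences of -0.24 and 0.07. From 5 to 10 h, across slides, it was higher in 30 of 69 clones (43.5%), against 39.7% of all. That count turned with the processing, with 39 of 69 higher in the deposited table (36.2% of all) and 38 of 69 with plain background subtraction (40.3% of all). The median step of the 69 clones minus that of all clones was 0.33 from 2 to 5 h, 0.07 from 5 to 10 h and -0.31 from 10 to 24 h. In the deposited table these values were 0.27, 0.27 and -0.37, and with plain background subtraction 0.25, 0.19 and -0.32. Over the 48 clones with clear untreated signal, set against 578 clones of that kind, they were 0.26, 0.16 and -0.31. The SD of ratios over all clones was larger at 5 h than at 2 h and smaller at 24 h than at 10 h, and its part in these steps was not tested. With 1 array a time there is no replicate error for a step, and single steps have no test.

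By size, 16 clones gained at least 1 from 2 to 5 h and 2 lost as much, against 6.92% and 7.25% of the 607 clones. From 10 to 24 h, 4 gained and 10 lost at least 1, against 13% and 8.90% of all. These counts include values whose untreated signal was not above background. Among the 48 clones with clear untreated signal, 6 gained and 2 lost at least 1 from 2 to 5 h, and 3 gained and 6 lost as much from 10 to 24 h. Shares for steps of that size were not counted over the 578 clones of that kind, so these counts have no comparison. For steps of any size, the ratio was higher in 34 of the 48 from 2 to 5 h, against 46.0% of the 578. From 10 to 24 h it was higher in 17 of the 48, against 55.0%. RAFL06-11-F24 gained 2.92 from 2 to 5 h, and 2.93 in the deposited table. With loess 3 clones were higher at each later time and 3 were lower, and 2 of each kind kept that order in the deposited table. The share of all clones with such an order was not counted. RAFL05-18-H22, at 1.81, 2.32, 2.47 and 3.34, was higher each time on both scales, and RAFL08-17-O07, at 2.15, 1.78, 1.75 and 1.09, was lower each time on both. Both had untreated signal above background throughout.

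A steady change with feeding time was tested with limma as a slope on log2 of hours over all 716 clones with at least 3 values. With 1 array a time, the error of a slope is the scatter around a straight line and not a spread between replicates. None of the 69 clones passed at a Benjamini-Hochberg adjusted p of 0.05 (lowest limma adjusted p = 0.376), and none of the 716 did (0% called). At an unadjusted p under 0.05 there were 8 of the 69, against 9.36% of the 716 clones. Of the 69 slopes, 34 were above 0, with a median of -0.003 log2 per doubling of hours, against 42.7% above 0 over all clones. The lowest p belonged to RAFL06-11-F24, with a slope of 1.01 ± 0.23 (moderated SE, 4 arrays, limma adjusted p = 0.376, higher at 24 h than at 2 h). AT1G66760 had a slope of -0.70 ± 0.19 (limma adjusted p = 0.384).

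The outcome of the slope test rested on the last array. Slopes without it rest on the 2, 5 and 10 h arrays alone, and their error is again scatter around a line, not replicate error. Without the 24 h array, 8 of the 69 clones passed, all with ratios that rose from 2 to 10 h, against 3.51% of 655 clones that passed as rising and 8.55% that passed in either direction. They were RAFL09-95-D06 (slope 1.19 ± 0.22, limma adjusted p = 0.00772), RAFL04-09-C15, RAFL09-06-O22, RAFL05-03-B20, RAFL06-13-O22, RAFL04-09-D16, RAFL06-11-F24 and RAFL05-16-B15. Of these, 7 had no saturated fed median and untreated signal above background up to 10 h. The exception was RAFL05-03-B20, whose fed median at 2 h was at the scanner's ceiling, so that its ratio there, 2.16, is only a lower bound, and whose untreated signal at 10 h was not above background. At 24 h, 6 of these 8 had a lower ratio than at 10 h. The 10 h array is then the only one of its slide, so slide and feeding time cannot be told apart. The SD of ratios over all clones also grew over these arrays, from 1.11 at 2 h to 1.29 at 5 h and 1.60 at 10 h. The 69 clones were chosen as high on each of these same arrays, and the part of the choice and of the wider spread in their rises was not tested. Where slide entered as a block, and without the 2, 5 or 10 h array, 0 of the 69 clones passed with limma, and 2, 4, 5 and 10 of them had an unadjusted p under 0.05.

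Across the 69 clones the ratios at different times were correlated between r = 0.38 (2 and 24 h) and r = 0.75 (10 and 24 h). Over all 607 clones the same values were 0.75 and 0.79, and the highest was 0.90 (5 and 10 h). Clones of an array share its hybridization, dye and normalization, and the choice of high clones narrows their range, so these values are descriptions.

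Most clones had duplicate spots, and 63 had 2 usable ones at all times. Spots of a clone differed by a median SD of 0.10, 0.10, 0.11 and 0.14 at 2, 5, 10 and 24 h, and every usable spot stood at 1 or more in 63, 68, 62 and 57 of the 69 clones. At all 4 times together this held for 51 clones. At least some pixels of the fed spots were saturated in 2, 19, 14 and 8 clones at these times. Shares over all clones were not counted for saturated pixels or for spots at 1 or more. The fed median itself was at the ceiling for RAFL05-03-B20 at 2 h and RAFL09-06-J23 at 5 h, whose ratios of 2.16 and 3.01 there are lower bounds. The detector gain for the fed dye was 58, 65, 60 and 60, highest at 5 h.

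The clones came from many parts of the collection. The number after RAFL names the cDNA library, and 11 of 17 libraries held at least 1 of the 69. In the 6 libraries with at least 20 clones measured at all times, the 69 clones made up between 10.1% and 13.1% of those clones. Sequences of the clones and of their genes' promoters and proteins were not used here.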

How the data were processed

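The 4 arrays hold fed (Cy5) and untreated (Cy3) RNA, 1 array per time. Per the file headers, the deposited intensities are foreground and local background medians over pixels on a linear scale, from ScanArray Express; the deposited percent columns give saturated pixels. The authors' deposited table holds a natural log value per clone of unstated scale and direction. Regressed on the scanners' own natural log of red over green, the 4 columns gave slopes of 0.988, 0.984, 0.968 and 0.962 (r of at least 0.992), and it was read as that ratio. Its medians over clones were 0.305, 1.20, 0.609 and 0.867, and 8 values at 10 h sat at a floor. It was divided by the natural log of 2 and centred on the clone median to choose the members.

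Computations used R 4.3.3, limma 3.58.1, Python 3.11.15 and pandas 2.3.3. Intensities were corrected with normexp (offset 50) and loess within arrays, with control spots and spots not flagged good (value 3) at weight 0, and good spots of a clone were averaged. Signal was above background when the foreground median exceeded background by 2 background SD in at least 50% of spots. Bounds used channel signals after loess and Aquantile scaling. A clone entered the slope test when above background in 1 dye or more on at least 2 arrays, with at least 3 values; the fit was tested on simulated data. Names of genes were read from GEO's platform annotation (416 of 1196 probes with 1 symbol, 0 with several, the rest unnamed here) and, through identifiers, the TAIR10.1 annotation, which matched 414 of 415 named clones. JOX names were matched by locus. The probes are long cDNA clones, so close relatives may share signal.

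Members and lists were chosen with earlier results of these data known. All named members are given, with the 4 highest and 4 lowest unnamed ones by mean; other clones singled out by range, step or slope were chosen after their values were seen. Tubulin, lambda DNA, median, background, spot and pixel alternatives were tried.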

Additional observations from a re-analysis of the deposited data

How the results depend on the processing

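The number of the 69 clones at 1 or more at all 4 times was 57 with loess. It was 69 in the deposited table, where the choice fixed it. Over the other settings with all clones it lay between 52 (no background correction) and 69 (lambda DNA, alpha tubulin), and at 68 with all spots kept. With both dyes above background throughout, it was 46 of 48 clones. The median of the means, 2.09, lay at 3.36 relative to lambda DNA and 3.35 relative to alpha tubulin, which move the zero point of every clone by 0.69 to 1.78 and 0.84 to 1.73 log2, and otherwise between 1.92 and 2.2. Leaving out 1 array gave counts of 57 to 62 clones at 1 or more at all the remaining times, and medians of 2.02 to 2.11. The time of the highest value moved most. The count for 2 h, 9, was 16 in the deposited table, 14 with median centring and 1 relative to lambda DNA; that for 5 h, 27, was 16 in the table, 56 relative to lambda DNA and 13 of the 48 clones with clear untreated signal, a setting chosen after seeing the data; those for 10 h, 22, and 24 h, 11, were 7 and 5 relative to lambda DNA. The cause was not tested, other than that a zero point common to an array shifts all its clones. Leaving out 1 array gave 0 to 8 clones with a slope, 8 without the 24 h array, and the deposited table, median centring, lambda DNA, background subtraction, all spots and the slide block gave 0; the other settings were not run for slopes. A limit of 1.5 in place of 1 would choose 41 clones. No paired analysis was possible because the design holds a single array for every feeding time. With 1 array a time and fixed dyes, no ratio level was tested, and weak untreated signal limits 21 of the 69 clones.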

Other observations

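Gene lists outside the 69 clones were thinly covered by named clones. Of 21 genes listed for abscisic acid, drought and cold, 5 were named on the array. KIN2 stood at 1.74, 1.77, 3.47 and 0.48 log2 at 2, 5, 10 and 24 h, and COR47 at -0.12, 0.26, 0.31 and -0.74. COR15A stood at 1.07, 1.34 and 3.05 up to 10 h. At 5 and 10 h, COR15B stood at 1.38 and 0.35 and KIN1 at -0.04 and 1.04. Of 21 listed wound- and jasmonate-responsive genes, 2 were named, THI2.1 at -0.90, -0.02, -0.54 and 2.55 and PDF1.2 at -0.31, -0.58 and 2.82 from 5 h on. Of 26 listed for detoxification and redox, 3 were named, AT5G64120, ALDH7B4 and AER, with means of 2.42, 1.51 and 0.85. Of 19 listed for lectins and ER bodies, 6 were named and 4 had 4 values, with a median of the means of 1.53 log2, against -0.10 over all 607 clones. Those with fewer values, BGLU21 and JAL33, had lower means of 0.75 and -0.17. Of 30 listed for transcription and calcium, 5 were named and 3 had a value; STZ stood at 0.80, 1.60 and 0.04 up to 10 h, WRKY53 had a mean of 0.18 and WRKY6 a single value of 0.38. Of 20 listed for proteases, inhibitors and senescence, 2 were named, and GAMMA-VPE stood at -1.13, -0.47, 0.35 and 0.64. KIN2, AT5G64120, ALDH7B4, JAL34 and NAI2 belonged to the 14 genes set aside. No list has a test, and the lists were chosen with these data known.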
